A study of Mus musculus with 10 samples.

Results

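Neutrophil recruitment genes were followed through ischaemic injury of the mouse kidney: the chemokine ligands Cxcl1, Cxcl2 and Cxcl5, their receptor Cxcr2, the growth factor Csf3 and its receptor Csf3r, the alarmins S100a8 and S100a9, and the chemokine Ccl20. These 9 genes were chosen by name, out of 33644 genes in the bulk RNA table. They were read in the bulk libraries of 8 groups, and by symbol in 2 single-cell libraries, where 8 of the 9 were listed in the injured and 1 in the uninjured kidney.

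Cxcl1, Cxcl2 and Cxcl5 carry the Glu-Leu-Arg motif that lets them bind Cxcr2 on neutrophils and draw these cells out of blood. Csf3, granulocyte colony-stimulating factor, drives neutrophil production in the marrow through Csf3r, and S100a8 and S100a9 together form calprotectin, an abundant protein of neutrophil cytosol that signals through Tlr4 and Ager when released. Ccl20 acts through Ccr6 on lymphocytes and some dendritic cells, and its transcription, like that of the Cxcr2 ligands, is known to respond to NF-kB and to interleukin 17.

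The animals were 8 weeks old. Injured kidneys had their artery tied for 15 minutes and were taken 2 weeks later, with the opposite kidney of injured animals as contralateral control. There were 3 arms. The labelled Ihh-deleted arm was Pax8creERT2;Ihhfl/fl given tamoxifen, so that deletion is confined to cells with Pax8, chiefly tubule epithelium. The floxed vehicle arm had the same genotype without tamoxifen, and the wild-type tamoxifen arm was C57/BL6 given tamoxifen. The wild-type arm therefore differs from the vehicle arm in both genotype and drug. Kidneys left after removal of the other kidney, and kidneys of uninjured animals, were C57/BL6, and so were both single-cell samples. The time after nephrectomy is not given in the sources used here. Each group held 4 numbered bulk libraries. Of the 32 libraries, 3 had a heart profile (nephrectomy library 3 and uninjured libraries 1 and 4) with 6.12% to 6.24% of counts in 10 heart genes, and were left out of the comparisons below, except where a fit on all 32 libraries is named as an alternative. This left 3 nephrectomy and 2 uninjured libraries. The other 29 held 0.593 M to 38.0 M counts (M, mega), with 0.697% to 3.36% in 8 kidney genes. Whether the libraries of a group are separate animals is not stated, so p-values measure the spread between these libraries only, which may be technical.

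Ihh itself was lower but present in injured kidneys labelled Ihh-deleted, at 4.57 to 6.08 CPM (each count scaled by the total of its library, in M), against 5.97 to 11.8 CPM in the wild-type and 6.87 to 15.3 CPM in the vehicle arm. In contralateral kidneys labelled Ihh-deleted it ran from 3.44 to 17.2 CPM, across the range of the intact arms, so the libraries are named by their label throughout.

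The members lie on 5 chromosomes (GRCm38, GENCODE M21). Cxcl5 (chr5:90759360-90761624), Cxcl1 (chr5:90891241-90893115) and Cxcl2 (chr5:90903871-90905938) sit in 1 cluster on the plus strand, and S100a8 (chr3:90668978-90670035, plus strand) and S100a9 (chr3:90692632-90695721, minus strand) lie beside each other. No annotated gene overlapped a member. RefSeq promoter windows (GRCm38.p6, 250 bases before to 50 after the start) were found for 7 members, and none was in the table for Cxcl5 and Csf3. They are shown for the pair of ligands that moved together most closely and for Ccl20, with matches to the NF-kB consensus in capitals.

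Cxcl1, chr5:90890995-90891294, plus strand: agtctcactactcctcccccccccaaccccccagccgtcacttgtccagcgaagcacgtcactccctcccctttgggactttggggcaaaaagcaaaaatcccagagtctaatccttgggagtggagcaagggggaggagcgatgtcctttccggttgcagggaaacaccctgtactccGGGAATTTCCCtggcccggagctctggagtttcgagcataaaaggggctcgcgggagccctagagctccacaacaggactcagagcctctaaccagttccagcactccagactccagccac
Cxcl2, chr5:90903649-90903948, plus strand: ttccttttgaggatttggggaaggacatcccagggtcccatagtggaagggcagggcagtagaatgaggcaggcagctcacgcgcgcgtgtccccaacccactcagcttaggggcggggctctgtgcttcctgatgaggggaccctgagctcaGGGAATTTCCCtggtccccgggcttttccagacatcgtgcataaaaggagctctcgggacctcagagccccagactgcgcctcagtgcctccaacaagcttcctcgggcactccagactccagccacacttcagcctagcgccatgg
Ccl20, chr1:83116516-83116815, plus strand: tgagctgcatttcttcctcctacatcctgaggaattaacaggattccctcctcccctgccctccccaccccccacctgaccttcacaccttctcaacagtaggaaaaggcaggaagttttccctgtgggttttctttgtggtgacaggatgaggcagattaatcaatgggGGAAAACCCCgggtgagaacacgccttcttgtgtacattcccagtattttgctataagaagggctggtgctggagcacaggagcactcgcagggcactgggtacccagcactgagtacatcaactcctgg

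Cxcl1 and Cxcl2 carry the same run, GGGAATTTCCC, which matches the consensus on both strands by overlapping reads of the same bases. It starts 71 bases before the Cxcl1 start and 97 bases before the Cxcl2 start. Ccl20 has 1 match on the minus strand, 80 to 71 bases before its start, and Csf3r has GGAAGGTCCC, 129 to 120 bases before its start. The windows of Cxcr2, S100a8 and S100a9 held no NF-kB match. Of all 32851 windows of this length, 8.46% hold an NF-kB match on either strand. The AP-1 motif TGANTCA was in none of the 7 windows and in 7.81% of all windows. The C/EBP motif TTGCNNAA was in the S100a9 window alone among the 7, and in 10.8% of all windows. These are matches of letters, and binding was not measured.

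**Figure D1:**
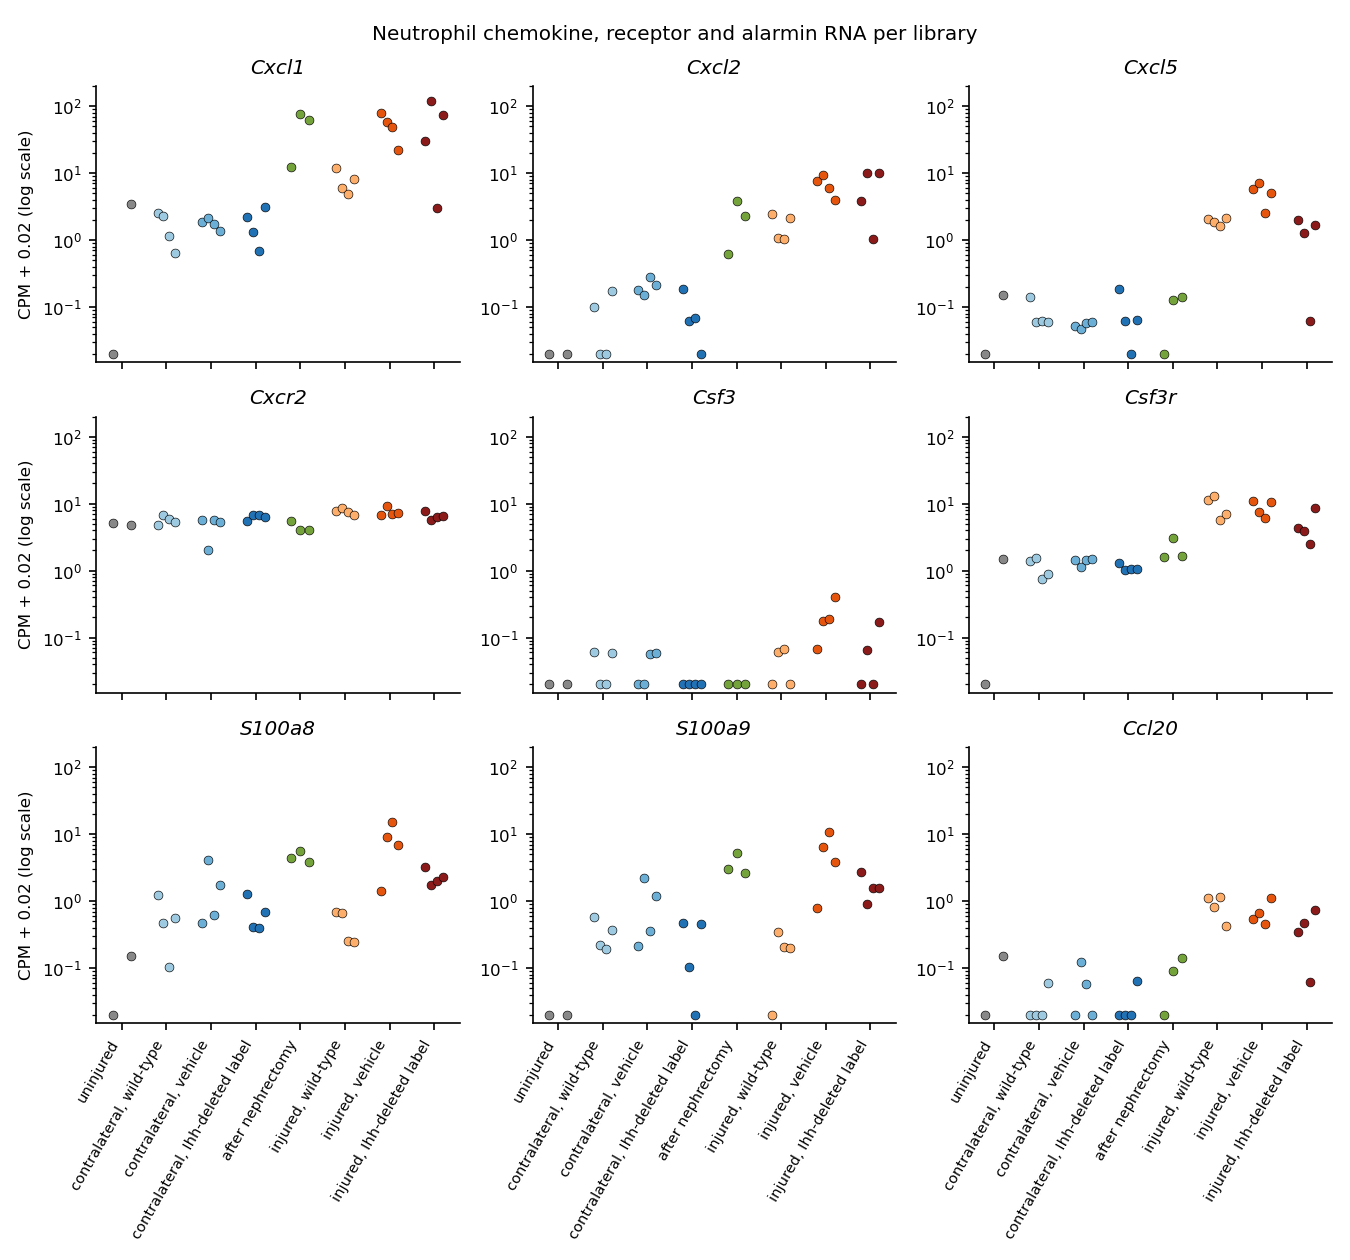
CPM plus 0.02 on a log axis for each of the 9 genes, 1 point per kidney-profile library, in 8 groups. Cxcl1 in 12 injured libraries runs from 3.05 to 118 CPM against 0.627 to 3.14 CPM in 12 contralateral libraries, while Cxcr2 lies at a similar height in all groups.

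Injured kidneys held more RNA of the chemokine ligands and of Csf3r than contralateral kidneys of the same arms. Over the mean of the 3 arms, 5 of the 8 tested members rose (Cxcl1, Cxcl2, Cxcl5, Csf3r and Ccl20) and none fell, in the edgeR quasi-likelihood fit, with p-values adjusted over 17591 genes and a threshold of 0.05. This comparison called 73.7% of all genes, 39.0% as higher, so the count alone does not set the members apart. In the same contrast 5 of 8 tested kidney genes fell and 1 rose (median log2 -1.03), and of 8 tested heart genes 5 rose and 1 fell, and the part of these shifts in the member values was not tested. The median log2 difference of the 8 tested members was 2.94 against 0.05 for all genes. Csf3, at 0 to 7 counts per library, was too low to be tested. Bulk RNA does not separate more cells of a type from more RNA per cell, here or in any comparison below.

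Cxcl1 had the highest level of the 3 Cxcr2 ligands. Its injured values were 79.1, 58.6, 48.6 and 22.2 CPM in the vehicle arm, 30.4, 118, 3.05 and 73.6 CPM in the labelled Ihh-deleted arm, and 11.8, 5.97, 4.79 and 8.03 CPM in the wild-type arm. Contralateral libraries lay between 0.627 and 3.14 CPM (median 1.76, n = 12). The wild-type and vehicle libraries all exceeded that range, and library 3 of the labelled Ihh-deleted arm, at 3.05 CPM, fell inside it. The log2 difference over the arms was 3.64 (SE 0.41, edgeR adjusted p = 6.59e-08), a 12.5-fold rise.

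Cxcl2, the ligand best known from macrophages, followed Cxcl1 at a lower level. It stood at 7.66, 9.43, 5.91 and 3.96 CPM in injured vehicle kidneys, 3.87, 9.92, 1.01 and 10.2 CPM in labelled Ihh-deleted and 2.46, 1.05, 1.02 and 2.15 CPM in wild-type kidneys. No contralateral library passed 0.259 CPM, and 3 of the 12 were at 0. The groups did not overlap, and the log2 difference was 5.07 (SE 0.52, edgeR adjusted p = 2.2e-09).

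Cxcl5, a ligand made mainly by epithelium, was close to absent in contralateral kidneys, at 0 to 0.165 CPM (0 to 4 counts). Injured vehicle libraries held 5.84, 7.21, 2.55 and 5.05 CPM, wild-type libraries 2.02, 1.81, 1.63 and 2.11 CPM, and labelled Ihh-deleted libraries 1.98, 1.25, 0.0423 and 1.68 CPM. The low value is again library 3 of the labelled Ihh-deleted arm, with 1 count, and the other 11 injured libraries lay above every contralateral one. The log2 difference was 4.98 (SE 0.50, edgeR adjusted p = 6.26e-10), which rests on few contralateral counts.

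The receptors differed. Cxcr2 stood at 5.61 to 9.07 CPM in injured (median 7.13) and 1.98 to 6.84 CPM in contralateral libraries (median 5.68), with a log2 difference of 0.04 (SE 0.11, edgeR adjusted p = 0.765). CPM are scaled by library totals alone and log2 differences by TMM factors as well, so throughout they need not match in size. Almost all of the Cxcr2 counts came from the 3046-base transcript, at a mean of 7.12 CPM in injured libraries against 0.0888 CPM for the 2220-base one. Csf3r rose by log2 2.25 (SE 0.19, edgeR adjusted p = 9e-10). Its injured values were 11.4, 12.9, 5.78 and 6.93 CPM in the wild-type, 11.1, 7.49, 6.03 and 10.5 CPM in the vehicle and 4.37, 3.91, 2.44 and 8.54 CPM in the labelled Ihh-deleted arm. Every one of them exceeded the contralateral range of 0.734 to 1.53 CPM. Csf3, the ligand of that receptor, had 1, 3, 4 and 7 counts in injured vehicle libraries, 0, 1, 0 and 4 in labelled Ihh-deleted, 0, 1, 1 and 0 in wild-type libraries, and 0 or 1 in each contralateral library.

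Ccl20 was low everywhere. It had 8, 10, 1 and 19 counts in labelled Ihh-deleted, 23, 20, 24 and 9 in wild-type and 11, 12, 10 and 20 in vehicle injured libraries. In contralateral libraries, 8 of 12 had 0 counts and the highest had 4. It passed the test (log2 4.39, SE 0.82, edgeR adjusted p = 8.61e-08), with a size that depends on those few counts.

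S100a8 and S100a9 overlapped between injured and contralateral kidneys. S100a8 held 1.39, 9.11, 15.3 and 6.76 CPM in injured vehicle libraries, 3.21, 1.70, 1.95 and 2.24 CPM in labelled Ihh-deleted and 0.674, 0.645, 0.233 and 0.224 CPM in wild-type ones. Contralateral libraries ran from 0.0848 to 4.11 CPM and overlapped all 3 arms. S100a9 behaved alike, at 0.766, 6.41, 10.7 and 3.79 CPM in the vehicle arm, 2.72, 0.894, 1.57 and 1.57 CPM in the labelled Ihh-deleted arm and 0, 0.323, 0.186 and 0.179 CPM in the wild-type arm, against 0 to 2.19 CPM in contralateral libraries. Over the mean of the arms neither passed (S100a8 log2 0.81, SE 0.41, edgeR adjusted p = 0.0796; S100a9 1.06, SE 0.51, 0.0638). With RLE factors in place of TMM both passed, at adjusted p = 0.0484 for S100a8 and 0.0426 for S100a9, and with DESeq2 both passed as well, at 0.0483 and 0.0321.

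Per kilobase of transcript, the members of injured kidneys were ordered by median as Cxcl1 (19.7 CPM per kb), S100a8 (3.75), Cxcl2 (2.57), S100a9 (2.40), Cxcr2 (2.35), Csf3r (2.30), Cxcl5 (1.24), Ccl20 (0.628) and Csf3 (0.0323). The ranges of neighbours in this order overlapped at every step, so the order is one of medians only. In contralateral kidneys Cxcr2 had the highest median, 1.87 CPM per kb, ahead of Cxcl1 at 1.32.

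Arm by arm, the vehicle arm called 7 of 8 tested members higher, where 63.7% of all genes were called and 32.6% as higher. S100a8 rose by log2 1.67 (SE 0.65, edgeR adjusted p = 0.0312) and S100a9 by 1.92 (SE 0.74, 0.0305) there. Contralateral vehicle library 2, at 4.11 CPM of S100a8, lay above injured library 1 at 1.39 CPM, so the groups overlapped. Without it the S100a8 difference was 2.78 and that of S100a9 2.90, and without any of 5 other libraries both lost the call, at adjusted p = 0.0517 to 0.162. The labelled Ihh-deleted arm called 6 members higher against a background of 33.8%, or 19.3% as higher. S100a9 was among them (log2 2.55, SE 0.87, edgeR adjusted p = 0.0266), while S100a8 missed the threshold at 1.56 (SE 0.70, 0.0872). The S100a9 call was lost without any of 3 libraries, at 0.0687 to 0.0752. The wild-type arm called 5 members against 60.7% of all genes called, with S100a8 at -0.80 (SE 0.77, edgeR adjusted p = 0.374) and S100a9 at -1.27 (SE 1.0, 0.263). Its Cxcl1 rise, log2 1.76 (SE 0.72, edgeR adjusted p = 0.0398), was the smallest of the 3 arms in size and was lost without any of 4 libraries, at 0.0625 to 0.11. In the vehicle arm Cxcl1 rose by 4.43 (SE 0.69, edgeR adjusted p = 3.03e-05) and in the labelled Ihh-deleted arm by 4.74 (SE 0.70, 0.000115), or 4.02 without its library 2. Cxcl5 rose by 6.61 (SE 0.93, edgeR adjusted p = 5.19e-07) in the vehicle, 4.41 (SE 0.82, 1.65e-05) in the wild-type and 3.92 (SE 0.82, 0.00037) in the labelled Ihh-deleted arm, or 4.94 there without contralateral library 1.

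**Figure D2:**
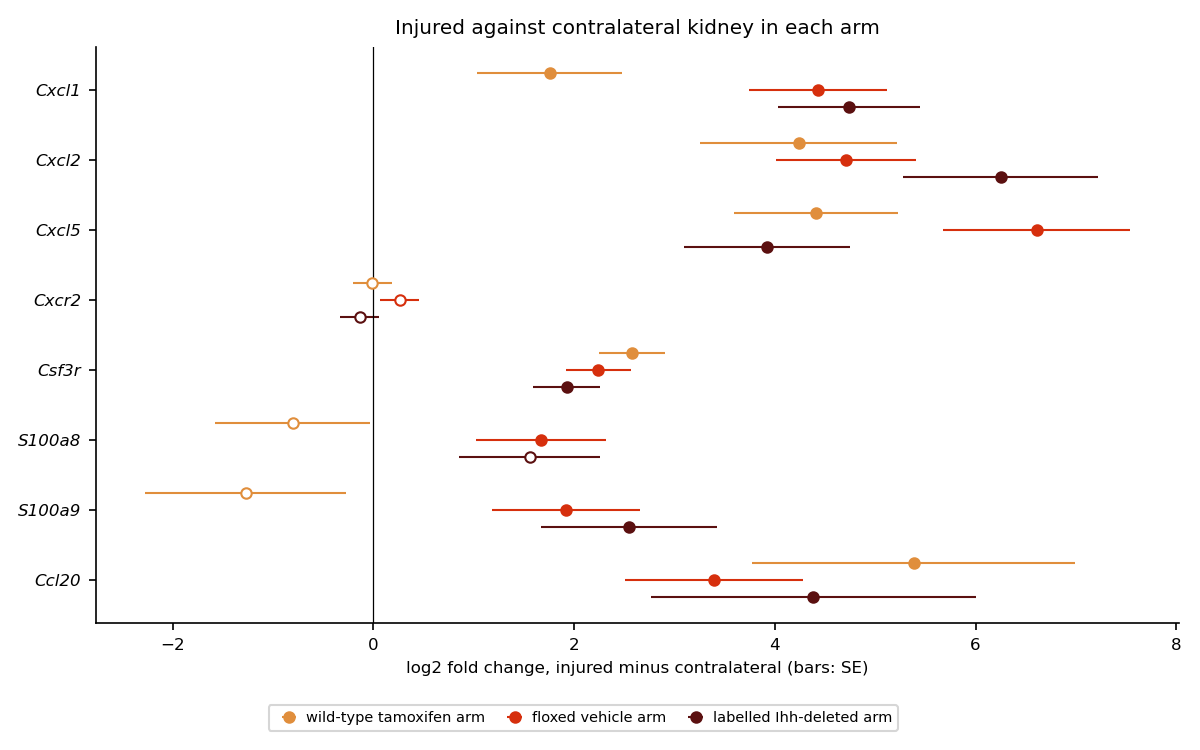
Log2 fold change of injured minus contralateral kidney for the 8 tested genes in each arm, with SE as bars, and filled points where the adjusted p is under 0.05. S100a8 and S100a9 lie at -0.80 and -1.27 in the wild-type tamoxifen arm and at 1.67 and 1.92 in the floxed vehicle arm.

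Whether the injury effect itself differed between arms was tested as an interaction. No member was called for the labelled Ihh-deleted against the intact arms by edgeR (16.1% of all genes were), with 1 member, S100a9, at an unadjusted p under 0.05 and 0 called by DESeq2. The differences for Cxcl1 (1.65, SE 0.86, edgeR adjusted p = 0.18) and S100a9 (2.22, SE 1.07, 0.135) did not pass the threshold. For the vehicle against the wild-type arm, a contrast added after the values were seen, edgeR and DESeq2 called 0 members and edgeR called 0.210% of all genes. Cxcl1, S100a8 and S100a9 had an unadjusted p under 0.05 there, with differences of 2.67 (SE 1.0, edgeR adjusted p = 0.384), 2.47 (SE 1.01, 0.425) and 3.19 (SE 1.25, 0.394).

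Among injured kidneys, the intact arms differed from each other in these genes. Wild-type tamoxifen kidneys had 3 of 8 members lower than floxed vehicle kidneys, where 2.23% of all genes were called: Cxcl1 by log2 -2.85 (SE 0.65, edgeR adjusted p = 0.0271), S100a8 by -4.24 (SE 0.72, 0.00273) and S100a9 by -4.95 (SE 0.92, 0.00405). For these 3 genes, picked by the call itself, the 4 values of one arm did not overlap with the 4 of the other. The share of all genes without overlap was not counted, here or in any other comparison, so lack of overlap does not set a member apart. Cxcl2 (-2.07, SE 0.59, edgeR adjusted p = 0.078) and Cxcl5 (-1.47, SE 0.52, 0.172) did not pass. DESeq2 called Cxcl2 as well (adjusted p = 0.0285). Cxcl1 lost its call without any of 7 libraries, at adjusted p = 0.0528 to 0.0992, and S100a8 and S100a9 were called without any single library, S100a9 at -4.30 without vehicle library 3. The summed level of 16 other neutrophil genes was 6.88 to 16.8 CPM in wild-type and 8.95 to 24.3 CPM in vehicle injured kidneys, with Ly6g, Camp, Ngp, Stfa2l1 and Elane at 0 in all 4 wild-type libraries and Elane and Stfa2l1 at 0 in the vehicle libraries. Retnlg, a transcript of mature neutrophils, was 0 to 0.135 CPM in the wild-type and 0.191 to 4.32 CPM in the vehicle arm. Of the 10 tested genes of this list, 2 were called lower and 0 higher in wild-type kidneys. Mmp9 (mean 6.15 against 3.8 CPM) and Prtn3 (0.487 against 0.218 CPM) had the higher mean in the wild-type arm. The part of neutrophil number in the alarmin difference was not tested.

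Against wild-type tamoxifen injured kidneys 4 members were higher, with 38.6% of all genes called: Cxcl1 by log2 3.13 (SE 0.65, edgeR adjusted p = 0.00177), Cxcl2 by 2.13 (SE 0.59, 0.00833), S100a8 by 2.60 (SE 0.73, 0.00816) and S100a9 by 3.46 (SE 0.93, 0.005). For the alarmins the groups did not overlap, whereas library 3, at 3.05 CPM of Cxcl1 and 1.01 CPM of Cxcl2, lay under every wild-type library. Without library 2 of the labelled Ihh-deleted arm the Cxcl1 difference was 2.40 (adjusted p = 0.0109).

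Against floxed vehicle injured kidneys, which share the genotype, Cxcl5 alone was called, at log2 -1.86 (SE 0.53, edgeR adjusted p = 0.0244), with 16.4% of all genes called. The groups did not overlap, at 0.0423 to 1.98 CPM against 2.55 to 7.21 CPM. The call was lost without any of 4 libraries, at adjusted p = 0.0567 to 0.0774. Cxcl1 (0.28, SE 0.64, edgeR adjusted p = 0.789), Cxcl2 (0.07, SE 0.57, 0.952), S100a8 (-1.65, SE 0.65, 0.0841) and S100a9 (-1.50, SE 0.73, 0.158) were not called. The vehicle arm is a control for the comparison with labelled Ihh-deleted kidneys and for the one with wild-type kidneys, so these contrasts share its libraries.

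Against the mean of both intact arms, Cxcl1 was the 1 member called, where 37.2% of all genes were (log2 1.71, SE 0.56, edgeR adjusted p = 0.0158). Its mean over the 4 labelled Ihh-deleted libraries, 56.2 CPM (SD 50.3), lies near that of the vehicle arm, 52.1 CPM (SD 23.6), and above that of the wild-type arm, 7.64 CPM (SD 3.06). Of its 4 values, 1 lay above, 1 below and 2 within the range of the 8 intact libraries. Without library 2, at 118 CPM, the difference was 0.97 (adjusted p = 0.195), and with all 32 libraries in the fit Cxcl1 was not called either (adjusted p = 0.0751). Cxcl2 (1.10, SE 0.50, edgeR adjusted p = 0.0769), Cxcl5 (-1.13, SE 0.46, 0.0658) and Csf3r (-0.69, SE 0.27, 0.0561) did not pass the threshold, nor did S100a8 (0.47, SE 0.59, 0.539) or S100a9 (0.98, SE 0.70, 0.257). Csf3r was called lower with RLE factors (adjusted p = 0.0451), DESeq2 (0.0311), the 24 libraries of the injury arms alone (0.0437) and a replicate block (0.0488). With the block Cxcl5 was also called (0.022) and Cxcl1 was not (0.0529). In the same contrast all 9 monocyte and macrophage genes fell, among them Itgam at -1.66 (SE 0.27, edgeR adjusted p = 0.00042). Their summed level was 205 to 940 CPM in labelled Ihh-deleted, 1290 to 2350 CPM in wild-type and 586 to 1750 CPM in vehicle injured libraries. The part of this shift in the member values was not tested.

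**Figure D3:**
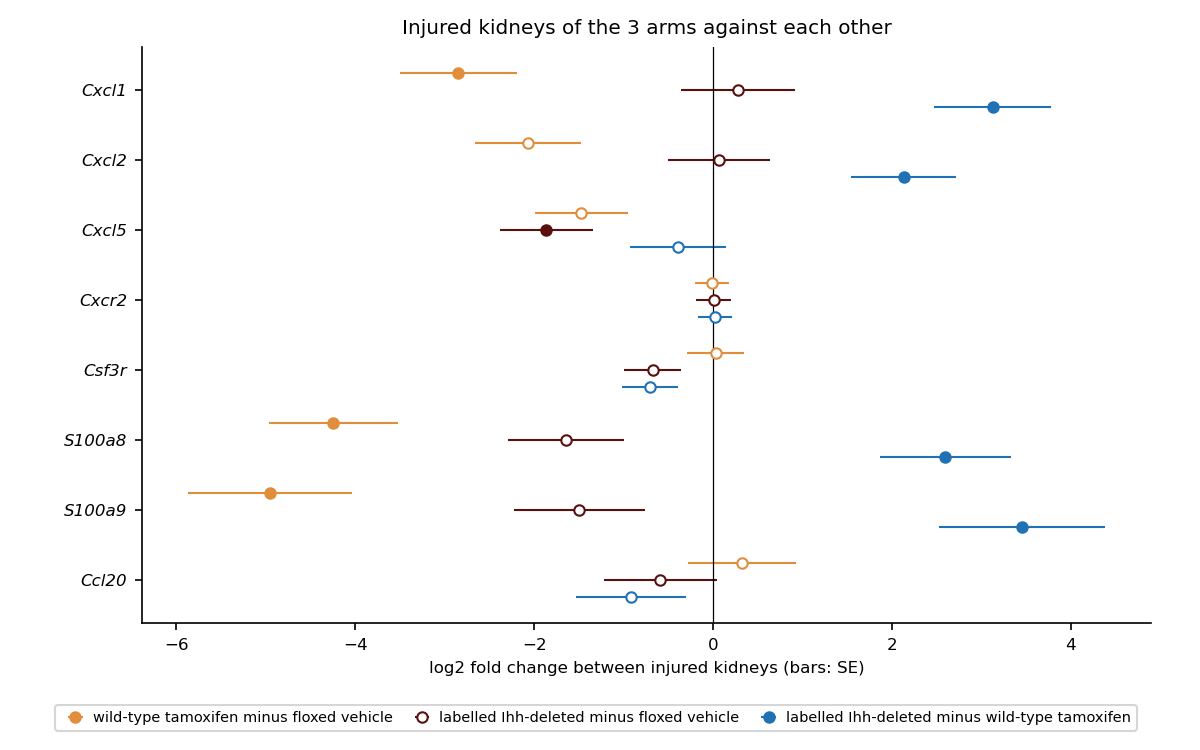
Log2 fold changes between the injured kidneys of the 3 arms for the 8 tested genes, with SE as bars, and filled points where the adjusted p is under 0.05. Cxcl1, S100a8 and S100a9 were lower in wild-type tamoxifen than in floxed vehicle kidneys, by -2.85, -4.24 and -4.95.

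In contralateral kidneys no member differed between labelled Ihh-deleted and intact arms by edgeR, with 0 at an unadjusted p under 0.05 and 0 by DESeq2, and 0.00568% of all genes were called. Contralateral kidneys also gave 0 members against uninjured kidneys by edgeR, at an unadjusted p under 0.05 and by DESeq2 alike, with 0.455% of all genes called. That comparison has 2 uninjured libraries, the smaller with 0.593 M counts, in which 3 counts correspond to 5.07 CPM of Cxcr2. In those 2 libraries Cxcl1 was 0 and 3.44 CPM, S100a8 0 and 0.132 CPM, Csf3r 0 and 1.45 CPM, and Cxcl2 and S100a9 were at 0 in both.

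The kidney that remained after nephrectomy had a different subset raised. Against contralateral kidneys of the injury arms 4 of 8 members rose, where 5.63% of all genes were called and 3.38% as higher. Cxcl1 stood at 12.4, 76.2 and 61.5 CPM after nephrectomy, above all 12 contralateral libraries, with log2 4.93 (SE 0.61, edgeR adjusted p = 1.76e-06). Cxcl2 stood at 0.608, 3.82 and 2.28 CPM, also above every contralateral library, with log2 4.66 (SE 0.67, edgeR adjusted p = 1.32e-05), and 3.88 without nephrectomy library 2.

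S100a8 stood at 4.33, 5.49 and 3.84 CPM and S100a9 at 2.97, 5.13 and 2.64 CPM after nephrectomy. S100a9 exceeded every contralateral library, and for S100a8 only nephrectomy library 4 lay under a contralateral library, vehicle library 2 at 4.11 CPM. They rose by log2 2.44 (SE 0.61, edgeR adjusted p = 0.00733) and 3.13 (SE 0.70, 0.00297), and without nephrectomy library 2 neither passed, at 0.0796 and 0.0609. Csf3r was at 1.60, 3.05 and 1.64 CPM, above the contralateral range of 0.734 to 1.53 CPM, with log2 0.96 (SE 0.31, edgeR adjusted p = 0.0541). It passed with a correction for transcript length (adjusted p = 0.0459) and with DESeq2 (0.0499). Cxcl5, at 0, 3 and 1 counts (log2 0.42, SE 0.99, edgeR adjusted p = 0.878), and Ccl20, at 0, 2 and 1 counts (1.38, SE 1.25, 0.51), were not called.

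Heart genes rose in this comparison too, 7 of 8 tested, and nephrectomy library 1 held 0.0635% of its counts in the heart list. Libraries 2 and 4 held 0.00139% and 0.00113%. Their values of Cxcl1, Cxcl2 and S100a9 were above every contralateral library, while S100a8 in library 4, at 3.84 CPM, was under the highest contralateral value, 4.11 CPM. The part of heart RNA in the member values was not tested. Other neutrophil genes rose as well, 7 of 10 tested, with Mmp8, the neutrophil collagenase, at 3.98 (SE 0.76, edgeR adjusted p = 0.000122). Their summed level was 6.84 to 10.1 CPM after nephrectomy against 1.29 to 3.93 CPM in contralateral kidneys. Macrophage genes did not rise, with 0 of 9 higher and 2 lower, and summed to 84.5 to 104 CPM after nephrectomy.

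Set against uninjured kidneys, the nephrectomy group gave 0 members by edgeR and 1 by DESeq2, with 0.176% of all genes called. At an unadjusted p under 0.05 were Cxcl1, Cxcl2, S100a8 and S100a9. The direct comparison of injured with nephrectomy kidneys, added after the values were seen, called 6 of 8 members, with 61.6% of all genes called and 32.3% as higher. Cxcl5 was higher in injured kidneys (log2 4.56, SE 0.91, edgeR adjusted p = 4.08e-05), as were Csf3r (1.29, SE 0.30, 0.0015) and Ccl20 (3.0, SE 1.01, 0.00481). The Cxcl5 difference ran from 3.83 to 5.53 and that of Ccl20 from 2.27 to 3.59 when nephrectomy library 1 or 2 was left out. S100a8 (-1.63, SE 0.60, edgeR adjusted p = 0.0138) and S100a9 (-2.06, SE 0.69, 0.00681) were lower in injured kidneys, and both calls were lost without nephrectomy library 2, at 0.0736 and 0.0699. Cxcl1 was lower by -1.29 (SE 0.59, edgeR adjusted p = 0.0431) over the 3 arms, a call lost without any of 8 libraries, at 0.0502 to 0.317. The call was also lost with RLE factors (adjusted p = 0.0622), no low-count filter (0.0511), the replicate block (0.102), DESeq2 (0.11) and all 32 libraries (0.203), and its 3 nephrectomy values lay within the range of the injured ones. Cxcl2 did not differ past the threshold (0.41, SE 0.55, edgeR adjusted p = 0.537).

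Over the 12 injured libraries, member pairs were compared by correlation of log2(CPM + 1). Of 36 pairs 2 passed Benjamini-Hochberg adjustment in a two-sided permutation test with 100000 resamples. Cxcl1 and Cxcl2 varied together with Pearson's r = 0.98 (permutation p = 1e-05, the smallest these resamples can give, adjusted p = 0.00018) and Spearman's rho = 0.96 (p = 2e-05, adjusted p = 0.00036). With arm means removed r was 0.96, and without the 2 libraries farthest from the Cxcl1 median it was 0.97. S100a8 and S100a9 gave r = 0.98 (permutation p = 1e-05, adjusted p = 0.00018) and rho = 0.96 (p = 1e-05, adjusted p = 0.00036), with 0.95 after arm means were removed and 0.96 without the 2 farthest libraries.

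The pair of ligands and the pair of alarmins were not tied to each other in this way. Cxcl1 against S100a8 gave r = 0.50 and rho = 0.43 (permutation adjusted p = 0.31 and 0.384), and -0.12 with arm means removed. Csf3r and Ccl20 had the next highest r, 0.73 (permutation p = 0.00679, adjusted p = 0.0815; rho = 0.62, adjusted p = 0.311), 0.58 with arm means removed. In library 3 of the labelled Ihh-deleted arm Cxcl1, Cxcl2, Cxcl5, Csf3r and Ccl20 were each at the lowest value of the 12 injured libraries, as was the macrophage sum of 205 CPM, while S100a8 at 1.95 CPM lay among the others.

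**Figure D4:**
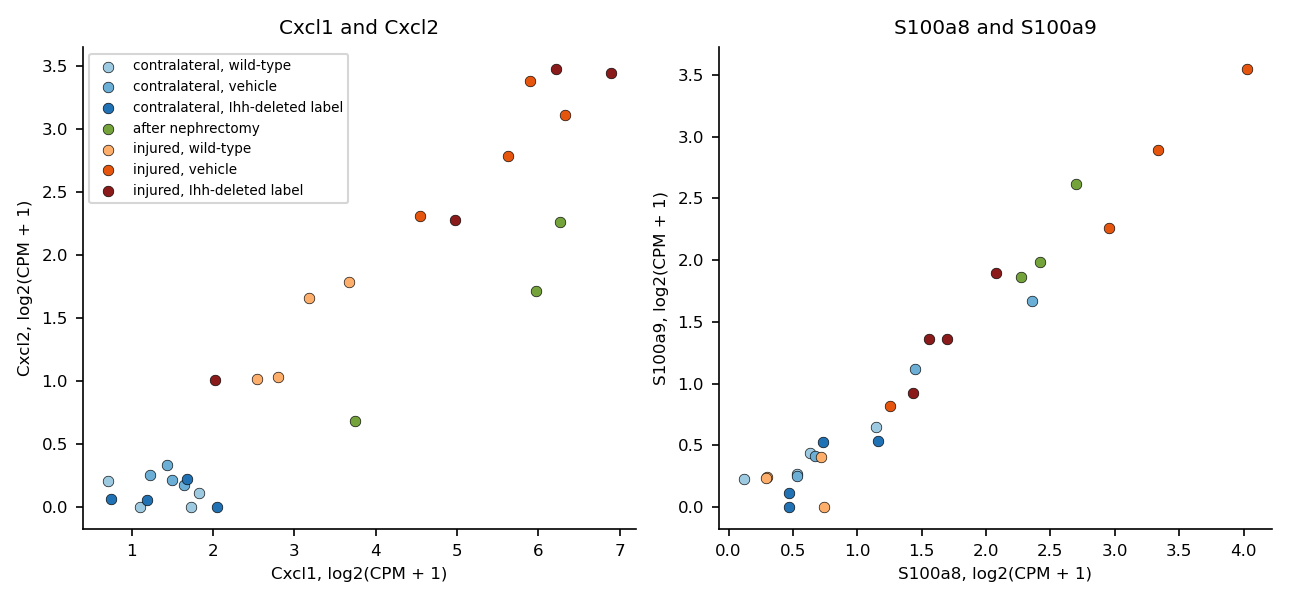
Log2(CPM + 1) of Cxcl2 against Cxcl1 (left) and of S100a9 against S100a8 (right), 1 point per library of the injured, contralateral and nephrectomy groups. Over the 12 injured libraries r is 0.98 in both panels.

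Genes of the same circuits were read from lists chosen beside the members. Of 18 related genes (other ligands of Cxcr2, further receptors, and the interleukin 1 and 17 side) 13 were tested and 9 rose in injured against contralateral kidneys, with a median log2 of 1.72. This contrast called 73.7% of all genes, 39.0% as higher, so such counts do not by themselves set this list, or the lists that follow, apart. The 9 that rose included Ccr6, the Ccl20 receptor, at 4.05 (SE 0.65, edgeR adjusted p = 5.5e-06), Ackr1, an endothelial chemokine carrier, at 3.56 (SE 0.80, 8.97e-06), and Il1a at 3.52 (SE 0.65, 3.3e-06). Il1b rose by 2.71 (SE 0.28, edgeR adjusted p = 2.02e-08), and the calprotectin receptors Tlr4 by 1.64 (SE 0.11, 3.34e-11) and Ager by 2.02 (SE 0.18, 1.87e-09). Cxcl3, a further Cxcr2 ligand, was 0 to 0.766 CPM in injured and 0 to 0.0392 CPM in contralateral libraries, and was called higher (edgeR adjusted p = 0.00479).

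All 14 NF-kB and interleukin 17 response genes rose after injury (median log2 2.47), with Lcn2, a siderophore-binding protein of tubule and neutrophil, at 3.95 (SE 0.26, edgeR adjusted p = 5.6e-11), Ccl2, which draws monocytes, at 3.56 (SE 0.25, 1.46e-10), the cytokine feedback inhibitor Socs3 at 3.44 (SE 0.18, 2e-12) and P-selectin (Selp) at 3.27 (SE 0.26, 6.16e-10). Nfkbiz, the nuclear cofactor that interleukin 17 induces, rose by 2.27 (SE 0.16, edgeR adjusted p = 1.23e-10). After nephrectomy 8 of the 14 rose against contralateral kidneys, where 5.63% of all genes were called and 3.38% as higher. Nfkbiz rose by 1.59 there (SE 0.26, edgeR adjusted p = 0.000131), while Lcn2 stood at 2.16 to 2.32 CPM after nephrectomy against 10.7 to 108 CPM after injury.

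Among 12 tested S100 genes outside the alarmin pair, 6 rose and 2 fell after injury, a share of calls under the 73.7% of all genes. S100a14 (2.58, SE 0.33, edgeR adjusted p = 1.07e-07), S100a6 (2.10, SE 0.18, 1.16e-09) and S100a4 (2.08, SE 0.29, 1.09e-06) rose and S100g, the calbindin of distal tubule, fell by -1.81 (SE 0.20, 3.18e-08). After nephrectomy, where 5.63% of all genes were called, 0 of these 12 rose and S100a6 fell by -1.35 (SE 0.32, edgeR adjusted p = 0.0164). Of 16 other neutrophil genes 10 were tested, and 8 rose and 0 fell after injury, where 73.7% of all genes were called and 39.0% as higher. Clec4d rose by 4.76 (SE 0.63, edgeR adjusted p = 1.57e-08), the decoy receptor Il1r2 by 4.18 (SE 0.54, 2.6e-08), Mmp8 by 2.87 (SE 0.65, 1.21e-05) and Mmp9 by 1.68 (SE 0.25, 1.88e-06). Trem1, a receptor of neutrophils and monocytes that was at 0 in all contralateral wild-type libraries, was called higher too (edgeR adjusted p = 5.24e-05). Retnlg did not pass (0.54, SE 0.56, edgeR adjusted p = 0.418), and Ly6g was 0 to 0.53 CPM in injured libraries. Clec4d, Il1r2 and Mmp9 are also made by macrophages. All 9 macrophage genes rose, led by Lyz2 at 3.54 (SE 0.25, edgeR adjusted p = 1.37e-10) and Itgam at 2.86 (SE 0.19, 3.34e-11), with Cd68 at 2.65 (SE 0.22, 1.17e-09) and Adgre1 at 2.52 (SE 0.19, 2.99e-10). The part of cell number in the member values was not tested.

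The single-cell libraries, 1 injured and 1 uninjured kidney of sorted live cells, showed which cells carried the chemokine RNA, with no replicate and no test. They held 3063 and 1313 barcodes, with 8 barcodes in common and median depths of 2014 and 2391 unique molecular identifiers (UMIs). The mitochondrial share was over 20% in 683 of the injured and 765 of the uninjured barcodes, and these were kept. The most genes in any barcode were 2496 and 2495. No cluster of either library reached the markers for a neutrophil, and Retnlg, Mmp8, Ly6g, Camp, Ngp, Trem1 and Stfa2l1 were not listed for the injured kidney. The rest of that marker list had UMIs there: G0s2 367, Il1r2 30, Clec4d 25, Hdc 15, Ltf 7, Mmp9 6 and Cd177 4. Every injured barcode held at least 1030 UMIs, so cells with less RNA are not seen, and absence of neutrophils was not tested. Clusters were named from marker lists, doublets were not removed, and the intervals cover counting error only.

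Cxcl2 had the most UMIs, 147 in 41 of 3063 cells. Macrophage-like cells held 75 of them, 144 CPM of all UMIs of the class (exact Poisson 95% interval 113 to 181), in 16 of 243 cells (6.58%, exact binomial interval 3.81% to 10.5%, median depth 1835 UMIs). An unnamed cluster of 89 cells led by Retnla, Lyz1, Ear2 and Mmp12 held 41, or 139 CPM (99.4 to 188), and dendritic-like cells 17, or 21.2 CPM (12.3 to 33.9). Of these 17 dendritic-like UMIs, 11 were in 1 cell of 5404 UMIs that had 5 detected neutrophil markers, so its class is uncertain. Injured tubule-like cells held 5, or 36.5 CPM (11.8 to 85.1), in 3 of 40 cells (7.5%, 1.57% to 20.4%). Thick ascending limb-like cells held 5, or 10.7 CPM (3.46 to 24.9). In proximal tubule-like cells, taken as a floor, 1 of 925 had a UMI (0.108%, median depth 2030 UMIs). The macrophage-like interval lies wholly above the proximal tubule-like one, which ends at 0.601%, and inside the injured tubule-like one. At a coarser clustering the unnamed cluster joined the macrophage-like class, which then held 116 UMIs, or 142 CPM.

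Csf3r also lay mainly in myeloid cells, with 12 of 21 UMIs in macrophage-like cells (23.1 CPM, interval 11.9 to 40.3) and 5 in the unnamed cluster led by Retnla. In T cell-like cells 1 of 331 had a UMI (0.302%, median depth 1301 UMIs) against 12 of 243 macrophage-like cells (4.94%). The part of these cells in the bulk Csf3r rise was not tested.

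Cxcl1, Cxcl5 and Ccl20 were found mostly outside the myeloid clusters, in few cells. Cxcl1 had 22 UMIs in 17 cells, of which 8 were in thick ascending limb-like cells (17.1 CPM, 7.37 to 33.6), 3 in injured tubule-like and 3 in fibroblast or mural-like cells, with 1 in macrophage-like cells. All 22 UMIs of Cxcl5 were in 2 thick ascending limb-like cells, 21 of them in 1 cell. Ccl20 had 15 UMIs in 5 cells, 8 of them in 3 thick ascending limb-like cells and 6 in 1 principal-like cell. At a finer clustering the thick ascending limb-like class held 0 UMIs of each, and 8, 22 and 8 UMIs of Cxcl1, Cxcl5 and Ccl20 lay in an unnamed cluster of 107 cells, so the class of these few cells is not settled.

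Cxcr2 had 7 UMIs in 7 cells of 4 classes, S100a8 had 10 in 8 cells and S100a9 had 6 in 5 cells, with no class holding more than 4 UMIs of any of them. S100a8 had a UMI in 0.432% of proximal tubule-like cells, again taken as a floor, and in 2.25% of the unnamed cluster led by Retnla (2 of 89 cells). The cell with 2 UMIs of S100a9 was dendritic-like by cluster and had 5 detected neutrophil markers. Its depth of 5404 UMIs and its marker count match those of the dendritic-like cell with 11 Cxcl2 UMIs. They also match those of a dendritic-like cell with 1 Cxcr2 UMI. In the uninjured kidney Cxcl1 alone was listed, with 3 UMIs in 2 of 1313 cells.

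**Figure D5:**
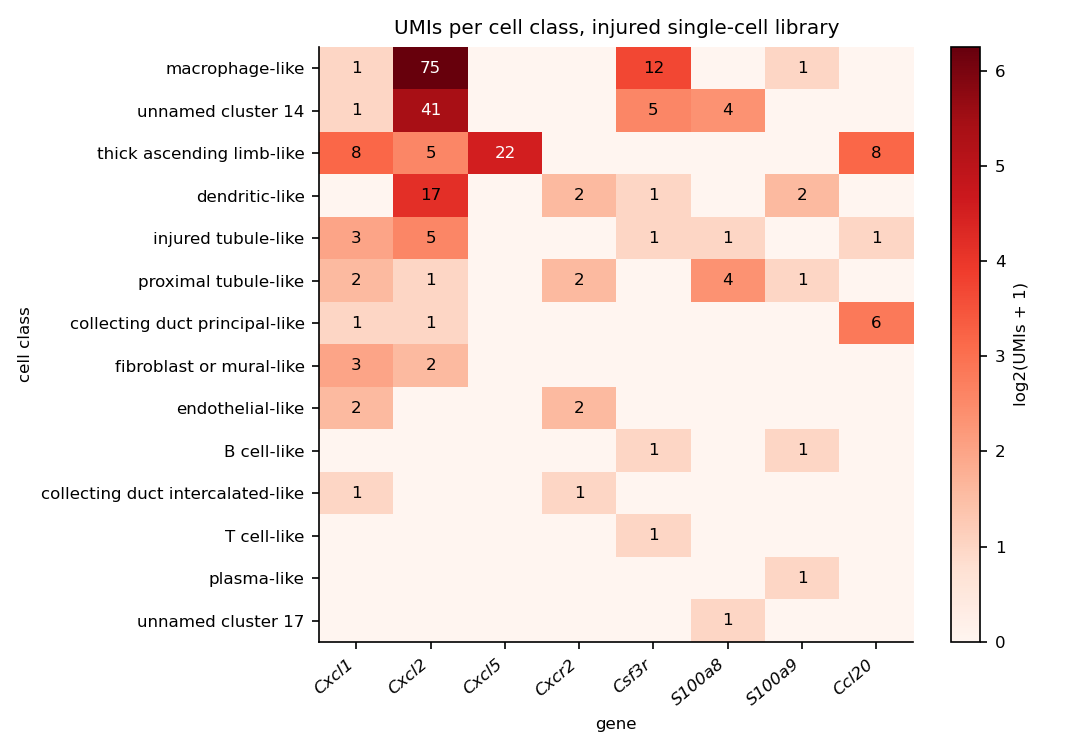
UMIs of 8 member genes (columns) in each cell class (rows) of the injured single-cell library, with the count printed and shaded on a log2(UMIs + 1) scale. Macrophage-like cells hold 75 of 147 Cxcl2 UMIs, while the 22 Cxcl5 UMIs are all in the thick ascending limb-like class.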

How the data were processed

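Bulk values are estimated counts per transcript, made by the authors with Salmon 1.4 per the submitters' processing notes; its index and options are not stated there. Single-cell values are UMI counts, which the authors made with Cell Ranger and STAR per the same notes, from 10x libraries of live-gated cells per the labels' protocols. Of 105833 transcripts, 105203 matched GENCODE M21. The 630 others, with 0.213% of counts, were left out, and the rest were summed to genes and rounded. CPM use whole library totals, and CPM per kb divide by mean transcript length.

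Genes kept by filterByExpr (17591) were tested in 29 libraries with quasi-likelihood F tests of edgeR 4.0.16 (R 4.3.3), scaled by TMM, in a design with a coefficient for each group. Benjamini-Hochberg adjusted p-values were called at 0.05. On simulated counts with known folds in few genes and a fixed spread the same steps were tested. That simulation does not show how they behave where most genes are called, as in injured against contralateral kidneys. Members, lists and tests were chosen with earlier results of these data known. All 9 members were named, and from each list the up to 4 largest called changes plus Cxcl3, Ccr6, Il1b, Tlr4, Ager, Lcn2, Nfkbiz, Ly6g, Retnlg and Mmp9. Heart and kidney lists served to identify tissue. Folds against groups with 0 counts in every library are not given.

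No library was a copy of another within its group (lowest chi-square per gene 1.945). Cells were clustered with scanpy 1.11.5 (2000 variable genes, 30 components, 15 neighbours, resolution 1.0), and a cluster was named with at least 3 markers among its 50 leading genes. Alternatives were all 32 libraries, RLE factors, no low-count filter, DESeq2 1.42.0, each library left out, a column number block, the 24 injury-arm libraries alone, a transcript length offset, other clusterings and a 20% mitochondrial limit. Intervals and floors cover counting error only.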

Additional observations from a re-analysis of the deposited data

Results flagged for a closer look

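Of 53 groups of 4 libraries checked for a value set far apart from the other libraries of its group, 6 had one. The usual chance rate of this check, about 1 in 20, does not hold for values of 0 or a few counts. The 6 can therefore not be set against it. They were Cxcl5 at 0.1215 CPM in contralateral wild-type library 1, Cxcr2 at 1.983 CPM and Csf3r at 1.102 CPM, both the lowest, in contralateral vehicle library 2, and Csf3r at 1.289 CPM in contralateral labelled Ihh-deleted library 1. Ccl20 stood at 0.04423 CPM in contralateral labelled Ihh-deleted library 4 and at 0.03918 CPM in contralateral wild-type library 4, each 1 count beside 3 libraries at 0.

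The 3 heart-profile libraries, used only in the alternative fits on all 32 libraries, held members above both kidney-profile uninjured libraries. Nephrectomy library 3 had 4.758 CPM of Cxcl1, 0.5857 CPM of Cxcl2, 0.3294 CPM of Cxcl5, 5.126 CPM of Cxcr2, 4.564 CPM of Csf3r, 4.941 CPM of S100a8 and 2.599 CPM of S100a9. Uninjured library 1 had 0.1499 CPM of Cxcl2, 0.6894 CPM of Cxcl5, 0.2398 CPM of S100a8 and 0.1499 CPM of S100a9. Uninjured library 4 had 4.563 CPM of Cxcl1, 0.1778 CPM of Cxcl2, 0.563 CPM of Cxcl5, 0.1778 CPM of S100a8 and 0.1185 CPM of S100a9.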

How the results depend on the processing

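With 1 library left out in turn, 1892 of 1972 values kept their direction and side of the threshold, and 437 of 462 did under the other settings. Members called in labelled Ihh-deleted against intact injured kidneys numbered 0 with all 32 libraries, 2 with RLE factors, DESeq2 or the 24 injury-arm libraries, and 0 to 3 without 1 library. Against the vehicle arm they numbered 0 with all 32 libraries and 0 to 2 without 1 library, and wild-type against vehicle gave 2 to 5. Contralateral against uninjured gave 1, and nephrectomy against uninjured 2, with all 32 libraries, the latter 1 with DESeq2. Nephrectomy against contralateral gave 2 to 5 and injured against nephrectomy 3 to 6. With all 32 libraries, genes called fell from 6539 to 1657 (labelled Ihh-deleted against intact), from 2881 to 0 (against vehicle), from 6797 to 2082 (against wild-type), from 392 to 56 (wild-type against vehicle, 661 with DESeq2), from 5953 to 2360 and from 10677 to 7031 (labelled Ihh-deleted and wild-type arms) and from 2834 to 167 (interaction), and rose from 80 to 6002 (contralateral against uninjured) and from 990 to 1898 (nephrectomy against contralateral). With all 32 libraries Cxcl1 also lost its call in the wild-type arm (adjusted p = 0.0755) and in wild-type against vehicle (0.191), and Cxcl5 in labelled Ihh-deleted against vehicle (0.167). The cause was not tested.

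Leaving out 1 library gave Cxcr2 -0.033 to 0.075 over the arms, Cxcl1 -0.449 to 0.673 and Cxcl2 -0.303 to 0.411 in labelled Ihh-deleted against vehicle, Cxcl5 -0.553 to 1.152 after nephrectomy, and Cxcl2 -0.065 to 1.186 in injured against nephrectomy kidneys. At the finer clustering Cxcl1, Cxcl5 and Ccl20 were at 0 in thick ascending limb-like cells, and at the coarser one that class was not named. Csf3, single-cell Csf3r and values near 1 count are limited by depth.

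The deviations of same-numbered injured and contralateral libraries correlated at -0.238 to 0.222 over 12 pairs, 10 of them positive. The labels give the numbers no shared origin and not every pair exceeded 0.1, so the block was kept as an alternative. It gave each column number an effect shared by all groups. Pairs of kidneys within an arm were therefore not fitted, and values with the block do not show what pairing would change. With a replicate block 2 members were called in labelled Ihh-deleted against intact injured kidneys: Cxcl5 (-1.35, edgeR adjusted p = 0.022) and Csf3r (-0.69, 0.0488), with Cxcl1 at 1.41 (0.0529). With the block, Cxcl1 was -0.044 and Cxcl2 -0.172 in labelled Ihh-deleted against vehicle kidneys. Of the 12 pairs, 6 had their own number as best match, among them all 4 of the wild-type arm, a hint from the data that some numbers may mark pairs.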
